A study of Mus musculus with 5 samples.

Results

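The secreted CAP family was followed through 6 genes looked up by symbol, and 2 of them, Pi15 and Crispld1, were higher in both pools of Ebf2-/- sciatic nerve than in every wild-type pool. The symbols were Pi15, Pi16, Crispld1, Crispld2, Glipr1 and Glipr2. All 6 were present, each with 1 probe set, among the 9407 genes of the deposited table. Pi15 and Crispld1 were chosen by their measured values, namely the difference between genotypes on these same arrays, so that difference is described here and carries no test.

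The arrays compared sciatic nerves of Ebf2-/- pups (KO) with those of Ebf2+/+ pups (WT) at postnatal day 2. All pups had a C57Bl6N background and came from heterozygous crosses. There were 3 WT pools (numbered 1, 9 and 11) and 2 KO pools (numbered 2 and 4), each made of 12 nerves and hybridised to 1 array. Values by pool are given below in the order 1, 9, 11 for WT and 2, 4 for KO. The labels do not say how many animals or litters gave a pool, nor which part of Ebf2 the null allele lacks. Since nerves were pooled, the spread between pools may be partly technical. Ebf2, the targeted gene, encodes a transcription factor. Its probe set read between 11.14 and 11.55 in the WT pools and at 9.25 and 8.74 in KO, so every array stood on the side of its label.

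The CAP family takes its name from cysteine-rich secretory proteins, antigen 5 and the pathogenesis-related 1 proteins of plants, which share 1 compact folded domain. Most animal members are secreted and act outside the cell, where several have been described as weak peptidase inhibitors, lipid binders or matrix components. Pi15, for peptidase inhibitor 15, was named for weak inhibition of trypsin. Crispld1 and Crispld2 join the CAP domain to LCCL domains, a module also found in matrix proteins. Pi16 is known as a marker of fibroblasts in the outer layers of vessels and other tissues. Glipr1 is a secretory-pathway protein first found in glioma. Glipr2 is the exception to secretion, since it sits on the cytosolic face of the Golgi membrane.

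Pi15 had the larger difference of the pair. Its log2 level was 9.46, 8.62 and 8.55 in WT against 10.72 and 10.68 in KO. The KO pools were nearly equal, while WT pool 1 stood well above the other WT pools, and the groups did not overlap. The WT mean was 8.88 ± 0.51 (SD, n = 3), and the KO mean was 10.70 ± 0.02 (SD, n = 2). The difference was 1.82 on the log2 scale (SE 0.22), or 3.54-fold. Only 1 of the 10361 probe sets had a larger rise. The lowest KO pool exceeded the highest WT pool by 1.23, a gap that 3 probe sets surpassed.

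Crispld1 had a smaller difference and a smaller WT spread than Pi15, with a WT SD larger than that of 53.8% of probe sets. Its log2 level was 10.50, 10.22 and 10.41 in WT against 11.17 and 11.11 in KO. Both KO pools again lay above all WT pools, and the WT pools stayed within 0.28 of each other. The WT mean was 10.37 ± 0.14 (SD, n = 3), and the KO mean was 11.14 ± 0.04 (SD, n = 2). The difference was 0.77 (SE 0.17), or 1.70-fold. By size of the rise 81 probe sets came before Crispld1, but only 11 had a wider gap between the lowest KO pool and the highest WT pool (0.62 for Crispld1).

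In the other 4 genes the groups touched or overlapped. Pi16 read 9.41, 9.23 and 9.03 in WT against 9.41 and 9.60 in KO, so KO pool 2 equalled the highest WT pool. Its difference was 0.28 (SE 0.17). Crispld2, the closest relative of Crispld1, read 8.94, 8.63 and 8.43 in WT against 8.86 and 9.03 in KO. KO pool 2 lay below WT pool 1, and the difference was 0.28 (SE 0.18). Glipr1 read 7.56, 7.24 and 7.24 in the WT pools and 7.50 and 7.37 in the KO pools, a difference of 0.09 (SE 0.17), with both KO pools inside the WT range. Glipr2 read 10.18, 10.10 and 9.89 in the WT pools and 10.16 and 10.45 in the KO pools, a difference of 0.24 (SE 0.17), and KO pool 2 lay below WT pool 1. All 6 genes thus had a higher mean in KO, as did 5161 of the 10361 probe sets (49.8%).

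**Figure D1:**
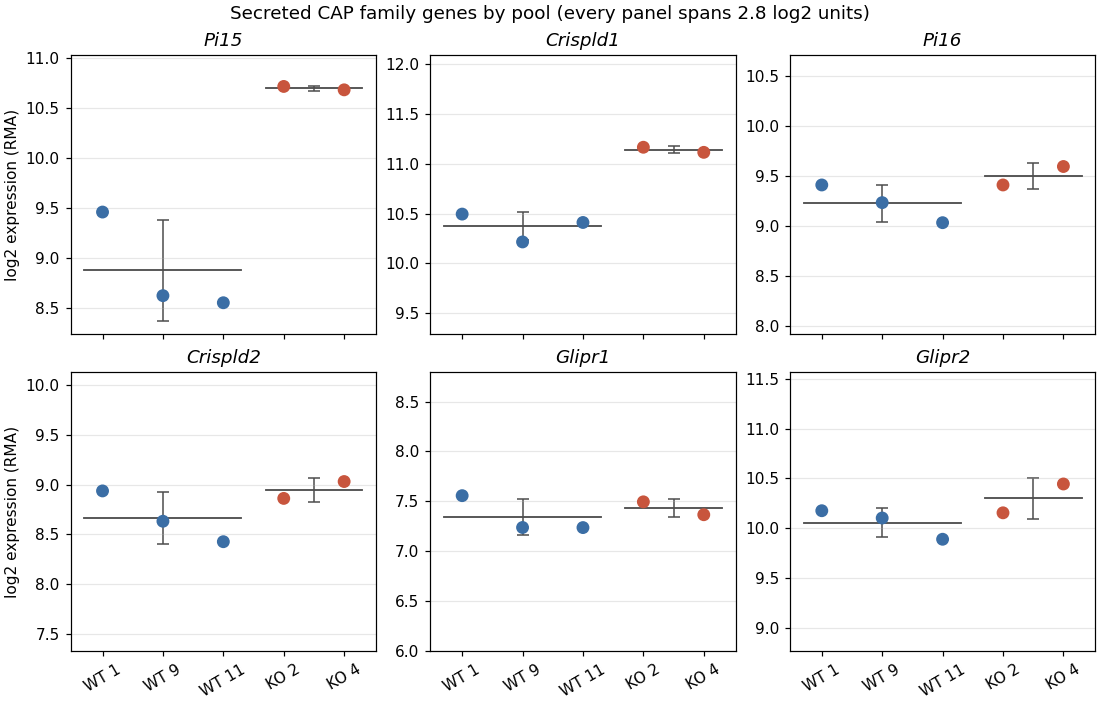
Log2 expression of the 6 genes (vertical axis) in each pool (horizontal axis), with WT pools in blue and KO pools in red; horizontal lines are group means and error bars are SDs (n = 3 WT, n = 2 KO). The KO pools lie above every WT pool for Pi15 (10.72 and 10.68 against at most 9.46) and Crispld1 (11.17 and 11.11 against at most 10.50), and the groups touch or overlap for the other 4.

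Counted over the table, both KO pools lay above all 3 WT pools in 1810 of 10361 probe sets (17.5%), and this held for 2 of the 6 genes. With limma, the linear model fitted across all probe sets, and Benjamini-Hochberg adjustment, 36 probe sets were called higher in KO at an adjusted p below 0.05 (0.347% of the table) and 34 lower (0.328%). The total of 70 ranged from 0 to 574 over 12 alternative settings. As Pi15 and Crispld1 were chosen by this same difference, no call is reported for any of the 6 genes.

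The WT pools were not alike, and Pi15 varied most among them of the 6 genes. Its WT SD was larger than that of 97.2% of probe sets, through WT pool 1, which read 0.84 above WT pool 9 and 0.91 above WT pool 11. For Crispld1 the same distances were 0.28 and 0.08. The KO mean of Pi15 exceeded WT pools 1, 9 and 11 by 1.24, 2.08 and 2.15, and that of Crispld1 by 0.64, 0.92 and 0.73. Markers of skin and skeletal muscle moved in the opposite direction among the WT pools. The 13 measured keratinocyte genes averaged 7.29, 9.08 and 8.47 in WT against 7.37 and 7.60 in KO. The 24 skeletal muscle genes averaged 9.52, 10.87 and 10.71 in the WT pools and 9.96 and 10.17 in the KO pools. Pools 9 and 11, with the highest skin and muscle levels, had the lowest Pi15. The part of these cells in the result was not tested. Against WT pool 1 alone, whose skin and muscle levels were lowest, the differences of Pi16 (0.09), Crispld2 (0.01) and Glipr2 (0.12) shrank and that of Glipr1 turned to -0.13.

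Pi15 and Crispld1 are consecutive protein-coding genes on chromosome 1 in the RefSeq annotation of GRCm38.p6. Their measured neighbours all had smaller differences, but the pair was chosen by its difference, so this contrast was largely set by the choice. Of the 10 nearest protein-coding genes on each side, 10 were measured, 6 before Pi15 and 4 after Crispld1. None of the 10 was called by limma, in a table where 70 probe sets were (0.676%), and 1 of the 10 had an unadjusted p below 0.05, against 14.3% of the table. The lowest adjusted p was 0.341, and 0.145 over the alternative settings. Their differences ran from -0.25 to 0.41 with a median of 0.02, and 5 were higher and 5 lower in KO. The groups did not overlap in 3 of the 10, and in 30.8% of the table.

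On the Pi15 side the nearest gene, Gdap1, a mitochondrial protein gene linked to inherited neuropathy, read 6.32, 6.88 and 6.33 in WT against 6.46 and 6.52 in KO (difference -0.02, SE 0.19). Jph1, for a junctophilin of muscle membranes, read 8.21, 9.50 and 9.29 in the WT pools and 8.69 and 9.06 in the KO pools (-0.13, SE 0.26). Its WT pools differed more than the genotypes did. Ly96, a partner of the lipopolysaccharide receptor, was at 0.07 (SE 0.20), Tmem70, an assembly factor of mitochondrial ATP synthase, at -0.14, and Eloc, for elongin C, at -0.12. Rdh10, which makes retinaldehyde from retinol, had both KO pools (11.10 and 11.34) above the WT pools (10.64 to 10.99), with a difference of 0.35 (SE 0.18, limma adjusted p = 0.380).

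On the Crispld1 side, Tfap2b, for a transcription factor of the AP-2 family, was at 0.08 and Il17f, for a cytokine, at 0.15. Mcm3, for a subunit of the replicative helicase, was at 0.41 (SE 0.19, limma adjusted p = 0.341), with KO pool 4 at 9.40 and KO pool 2 inside the WT range. Paqr8, for a membrane progestin receptor, was the lowest at -0.25 (limma adjusted p = 0.521). Crisp4, a CAP family gene and the nearest protein-coding gene after Crispld1, was not analysed here.

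**Figure D2:**
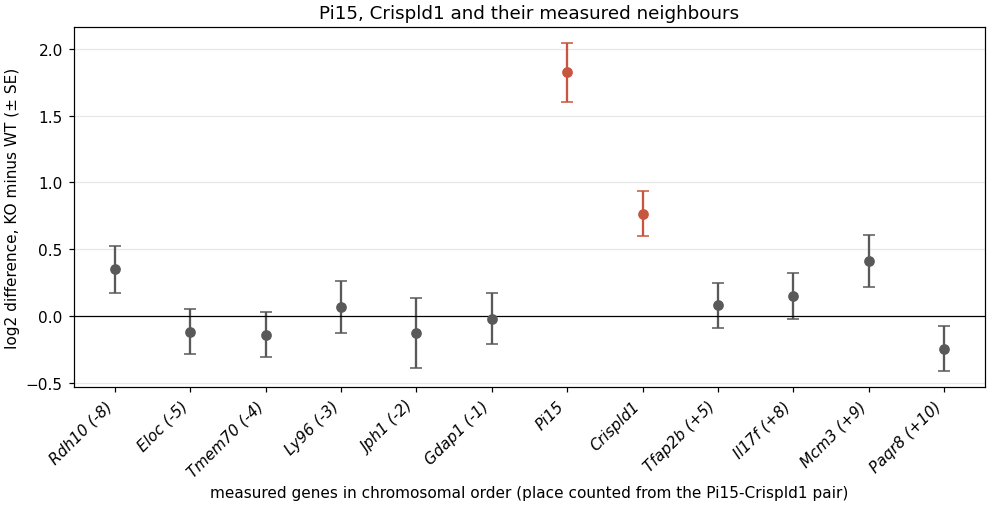
Log2 difference, KO minus WT, with its SE (vertical axis; 3 WT and 2 KO pools) for the measured genes around Pi15 and Crispld1 in chromosomal order (horizontal axis, with the place counted from the pair in brackets). Pi15 (1.82) and Crispld1 (0.77), in red, were chosen by this difference. They stand above the 10 neighbours in grey, which lie between -0.25 and 0.41.

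Relatives by domain included a further rise. In the CAP superfamily list of 15 genes, 7 were measured, and the 1 besides the 6 genes above was Glipr1l1, a testis-expressed relative of Glipr1, at 0.18 (SE 0.17, limma adjusted p = 0.643). Of 6 genes with LCCL domains 4 were measured, namely Crispld1, Crispld2, Vit and Dcbld1. Vit, which encodes the matrix protein vitrin, read 8.87, 8.54 and 8.74 in WT against 9.52 and 9.42 in KO. Both KO pools lay above the WT pools, and Vit rose by 0.75 (SE 0.17, limma adjusted p = 0.0445), with adjusted p from 0.00465 to 0.857 over 12 alternative settings. The call was lost when any 1 of the 5 pools was left out, with differences of 0.83, 0.66 and 0.77 without WT pools 1, 9 and 11 and 0.70 and 0.81 without KO pools 2 and 4. Dcbld1, for a membrane protein with an LCCL domain, was at 0.41 (SE 0.18, limma adjusted p = 0.305).

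The genes nearest in pattern over the 5 arrays were also listed for Pi15 and for Crispld1. Likeness was the root mean square (RMS) difference between the log2 values of 2 genes after each was set to its own mean, over 9406 other genes, and it is a description. The values were not scaled, so only genes with a rise of similar size could lie near either gene. The sets of Pi15 and Crispld1, whose rises differed in size, could therefore not coincide. The 5 genes nearest to Pi15 were Kera (0.16), Moxd1 (0.22), Epyc (0.24), Aldh1a2 (0.26) and Epha3 (0.26), against a median of 0.97 over all genes. Kera and Epyc encode small leucine-rich proteoglycans, Moxd1 a monooxygenase-like protein, Aldh1a2 an enzyme of retinoic acid synthesis and Epha3 an ephrin receptor. Each of them was lower in WT pools 9 and 11 than in WT pool 1, like Pi15, by whose pattern they were picked. Crispld1 was the 100th nearest to Pi15 (RMS difference 0.58), as its rise was smaller. In the other direction Pi15 was only the 8338th nearest to Crispld1. That distance exceeded the median distance to Crispld1 over all genes (0.42).

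Vit was the gene nearest to Crispld1, with an RMS difference of 0.03. It was followed by Vtn (0.06), for the adhesion protein vitronectin, Ebf1 (0.06), a relative of Ebf2, Gem (0.08), for a small GTPase, and Bace2 (0.08), for a membrane protease. The median over all genes was 0.42. Ebf1 read 11.45, 11.15 and 11.32 in WT against 11.98 and 12.12 in KO. Its difference was 0.75 (SE 0.17, limma adjusted p = 0.0445), and the call was lost when WT pool 1, 9 or 11 was left out. In this set WT pool 9 was the lowest of the 5 arrays for every gene, and both KO pools were the highest. Crispld1 had the same order, and the genes were picked for likeness to it, so this order is no separate result.

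**Figure D3:**
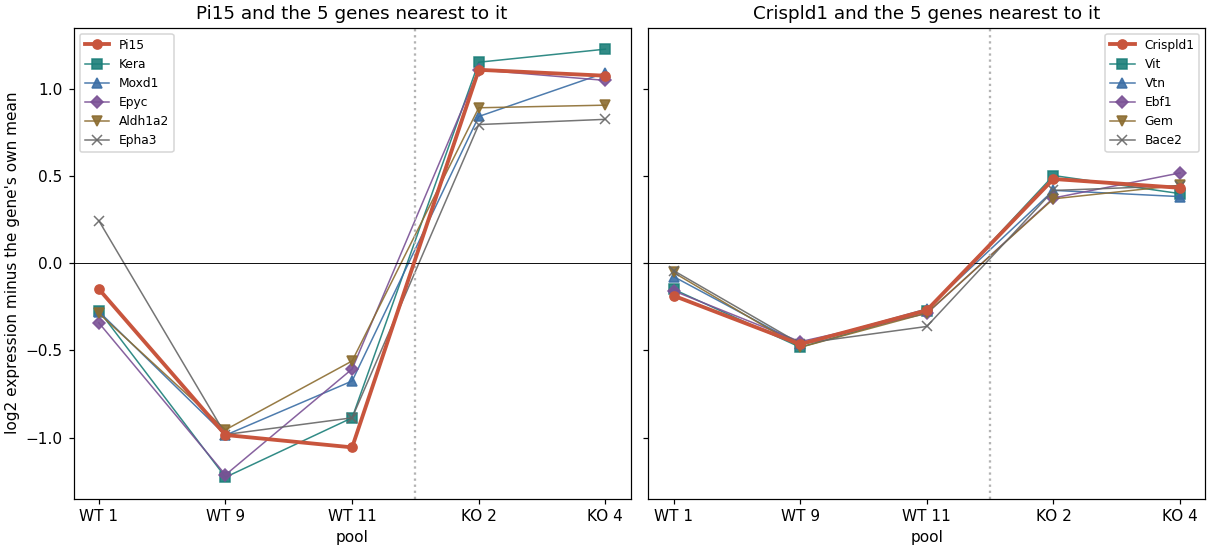
Log2 expression after subtracting each gene's own mean (vertical axis) in the 5 pools (horizontal axis), for Pi15 and Crispld1 (thick red lines) and the 5 genes nearest to each; lines only join the points of 1 gene, and the dotted line parts WT from KO. The RMS differences are 0.16 to 0.26 in the left panel and 0.03 to 0.08 in the right panel.

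Genes of secreted peptidase inhibitors, the group to which the name of Pi15 refers, were mostly higher but not called. Of 42 listed genes 20 were measured, 16 were higher and 4 lower in KO, with a median difference of 0.26 against 0.00 over all probe sets. None was called by limma, 5 had an unadjusted p below 0.05 (14.3% of the table did), and the largest difference was that of Timp1, an inhibitor of matrix metalloproteases (0.50, SE 0.17, limma adjusted p = 0.180). Both KO pools lay above all WT pools in 9 of the 20, and in 17.5% of the table.

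Markers of connective tissue and vessel cells also mostly lay higher in KO, and in these whole-nerve pools a change in the number of cells of a type and a change in RNA per cell cannot be told apart. Of 10 measured epineurial fibroblast genes other than Pi16, 9 were higher, 9 had both KO pools above all WT pools (17.5% of the table did), and 1 rose, Sfrp4, a secreted Wnt modulator (0.90, SE 0.20, limma adjusted p = 0.0359, and 0.53 against WT pool 1 alone). The median was 0.30, and 3 were at unadjusted p below 0.05 in limma. Of 12 perineurium genes 9 were higher and 1 rose, Moxd1 (1.62, SE 0.20, limma adjusted p = 0.000122; median 0.22), a call lost in 8 of 12 alternatives, with an adjusted p up to 0.857. Both KO pools lay above all WT pools in 4 of the 12, and 7 were at unadjusted p below 0.05 in limma, against 14.3% of the table. Of 11 fibroblast matrix genes 10 were higher, 7 with both KO pools above all WT pools, and none was called (median 0.25, 4 at unadjusted p below 0.05 in limma, against 14.3% of the table). The largest difference among them was that of Fap (0.73, limma adjusted p = 0.0880, and 0.29 against WT pool 1 alone). The endoneurial fibroblast list was evenly split, with 5 of 10 higher, none called and a median of -0.003. Both KO pools lay above all WT pools in 4 of the 10 (17.5% of the table). At unadjusted p below 0.05 in limma there were 4 (14.3% of the table). The largest difference in this list was a fall, that of Sox9 (-0.69, limma adjusted p = 0.0749, and -0.82 against WT pool 1 alone). All 13 endothelial genes were higher (median 0.43) and 8 of 10 pericyte and smooth muscle genes (median 0.39), again with none called, and with 8 and 6 at unadjusted p below 0.05 (14.3% of the table). Both KO pools lay above all WT pools in 6 of the 13 and 2 of the 10, and in 17.5% of the table. WT pool 1 stood near the KO pools here, with endothelial means of 10.48, 10.06 and 9.98 in WT against 10.68 and 10.46 in KO, and smooth muscle means of 10.68, 10.28 and 10.09 against 10.74 and 10.77. Against WT pool 1 alone, Plvap, for a protein of endothelial diaphragms, was at 0.14 and Myh11, the smooth muscle myosin, at 0.02.

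Pi15 and Crispld1 were then set against the mean of each list on the same array, an alternative added after the data were seen. The 11 fibroblast matrix genes averaged 12.06, 11.75 and 11.84 in WT and 12.20 in each KO pool. Relative to them the difference of Pi15 was 1.51, and relative to the epineurial, perineurium, endothelial and smooth muscle lists it was 1.46, 1.64, 1.43 and 1.42. Its lowest KO pool stayed at least 0.96 above its highest WT pool on each of these 5 scales. The difference of Crispld1 was 0.45 relative to fibroblast matrix and 0.40, 0.58, 0.37 and 0.36 relative to the other lists in the same order. Its groups still did not overlap, but the gap narrowed to 0.05 against the endothelial mean and 0.02 against the smooth muscle mean. A list mean takes the same amount from both genes by construction.

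Other lists lay lower or showed no common direction. All 11 measured genes of myelinating Schwann cells were lower, 7 of them called (Pmp2, Egr2, Cldn19, Gldn, Mag, Ncmap and Fa2h), with a median of -0.86, where 0.328% of the table was called lower. The 7 Schwann lineage genes had a median of 0.02 and none was called, with 3 at unadjusted p below 0.05 in limma. Their largest difference was that of Cdh19 (-0.56, limma adjusted p = 0.182). The mean of the 7 lay between 10.85 and 11.07 in all 5 pools. The medians were -0.33 for skeletal muscle, -0.37 for keratinocytes and -0.29 for adipocytes, with none called by limma and 4 of 24, 5 of 13 and 2 of 9 genes at unadjusted p below 0.05, against 14.3% of the table. The largest differences there were those of Tnnc2 (-0.82), Krt1 (-2.42) and Slc36a2 (-0.72), with limma adjusted p = 0.311, 0.109 and 0.0721. Against WT pool 1 alone they were 0.50, 0.22 and -0.56. The 4 macrophage genes had a median of -0.01, none called and 0 at unadjusted p below 0.05. Their largest difference was that of Adgre1 (0.35, limma adjusted p = 0.373). In the cartilage and tendon list Kera and Epyc rose and 8 of 10 were not called, with a median of 0.03. Apart from the 6 CAP genes, 12 of the 165 distinct genes in all lists were called, against 0.676% of the table. All lists were chosen with earlier results of these data known, so a share above that of the table may come from the choice of genes. All 12 lost the call without WT pool 9, KO pool 2 or KO pool 4, after median centring or quantile normalisation, against WT pool 1 alone and without moderation. Without WT pool 1 the call was lost in 11, all but Kera.

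**Figure D4:**
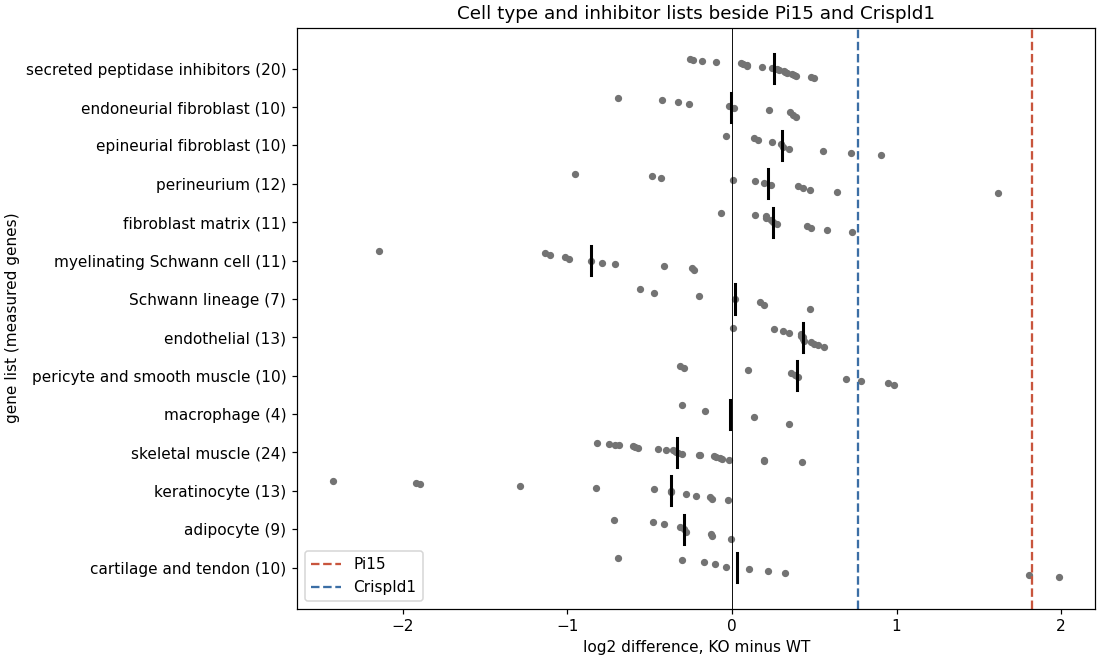
Log2 difference, KO minus WT (horizontal axis), of every measured gene (grey points, spread vertically for legibility) in 14 lists (vertical axis, number measured in brackets); black bars are list medians, and dashed lines mark Pi15 (1.82) and Crispld1 (0.77). Kera is the only listed gene to the right of the Pi15 line, and the list medians lie between -0.86 and 0.43.

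Since both genes were chosen with KO above every WT pool, most of the alternatives could change the size of the difference but not its direction. Leaving out 1 pool in turn gave differences of 1.66 to 2.12 for Pi15 and 0.69 to 0.83 for Crispld1. Centring each array on its median gave 1.88 and 0.82, and quantile normalisation 1.82 and 0.71.

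**Figure D5:**
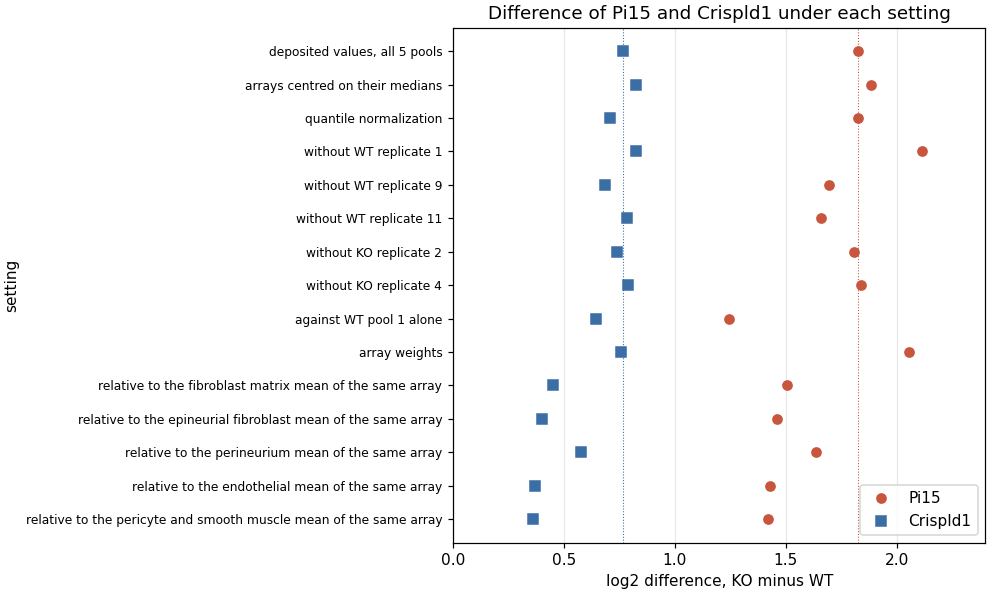
Log2 difference, KO minus WT (horizontal axis), of Pi15 (red circles) and Crispld1 (blue squares) under each setting (vertical axis); dotted lines mark the values from the deposited table with all 5 pools (1.82 and 0.77). Pi15 is lowest against WT pool 1 alone (1.24) and Crispld1 relative to the smooth muscle mean (0.36).

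The upstream sequences given for this work come from RefSeq (GRCm38.p6) and cover 250 bases before to 50 bases after a gene's start. They held 3 of the 6 genes (Pi16, Crispld2 and Glipr2) and 7 of the 10 nearest genes (Kera, Moxd1, Epyc, Aldh1a2, Epha3, Vtn and Ebf1). Pi15, Crispld1 and Glipr1 had no window and were not searched. The motif of the early B cell factors, searched as TCCCNNGGGA, which reads the same on both strands, occurred in 0.904% of the 32851 windows and in none of those of these 10 genes. That says only that these letters were not in these windows, and at so low a share so few windows would mostly hold none.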

How the data were processed

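RNA of 5 pools of mouse sciatic nerve was measured on Affymetrix arrays. The authors deposited a table of log2 values by probe set and array, summarised with RMA per the submitters' processing notes, with no version or settings stated in the labels. The table had 10361 probe sets, with log2 values from 2.84 to 14.3 and array medians from 8.93 to 9.11. In every probe set the fourth-ranked value exceeded the lowest by at least 0.175, as after a filter on spread, and genes not in the table were not analysed here. The platform annotation gave 1 symbol for 9411 probe sets, several for 384 and none for 566; a gene with several probe sets was represented by the one with the highest mean.

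Genotypes were compared with limma 3.58.1 in R 4.3.3 (lmFit, eBayes, 3 residual and 17.4 prior degrees of freedom), two-sided, with Benjamini-Hochberg adjustment over all probe sets. Differences are KO minus WT means with the moderated SE. The number of arrays limits the precision, and p-values cover only differences among these 5 pools. The script was tested on simulated data with independent noise for each probe set and array. That test could not probe shifts shared by a whole array. Named genes were the 6 CAP genes, the measured CAP and LCCL relatives, the measured neighbours, the 5 nearest patterns of each of Pi15 and Crispld1, and the called genes of a list or else its largest difference. The members and lists were chosen with earlier results of these data known. Alternatives covered normalisation, a filter on dim probe sets, left-out pools, moderation and array weights.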

Additional observations from a re-analysis of the deposited data

How the results depend on the processing

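The choice of Pi15 and Crispld1, whose groups did not overlap, fixed their direction under most alternatives. Against WT pool 1 alone the differences were 1.24 and 0.64. Relative to the fibroblast matrix, epineurial, perineurium, endothelial and smooth muscle means, Crispld1 was at 0.45, 0.40, 0.58, 0.37 and 0.36. No neighbour was called in the 5 alternatives that called more than 1 probe set; the other 7 called 0 or 1 in the whole table and say nothing about the neighbours. At least 4 of the 5 nearest genes of each stayed the same under 3 alternatives.

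The number of called probe sets (70) was far less stable. It was 1 after median centring or quantile normalisation, 0 against WT pool 1 alone, 0 without moderation, 574 with a trended robust prior, 268 with array weights and 0 to 105 when 1 pool was left out (6, 1 and 105 without WT pools 1, 9 and 11, and 0 without either KO pool). Calls among listed genes (12) were 0, 0, 0, 0, 28 and 26 in the same order, and 0 to 13 with 1 pool left out. The cause was not tested. Of 524 alternative values for the other 45 named genes, 362 counted as unchanged, 128 lost the call, 16 gained one and 18, none of them called, moved or changed sign. Unchanged meant the same call and direction. For Pi16, Crispld2, Glipr1 and Glipr2, whose alternatives carried no test, it meant a shift smaller than the SD within groups. For genes not called at first, settings with 0 or 1 call over the table left little room for change. The filter on dim probe sets left 64 calls, 62 of them shared. No paired analysis was possible because the genotypes share no pool numbers. With 3 against 2 arrays, small differences such as those of Pi16 or Glipr2 could not be told from the spread between pools.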
